A study of Homo sapiens with 12 samples.

Results

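SNARE proteins, their regulators and RAB-pattern genes were followed in HuH-7 cells, a human hepatocellular carcinoma line, in which miR1908-5p activity was raised with a mimic or blocked with an inhibitor. Members were taken by symbol: RAB, STX, VAMP or STXBP followed by a number, together with the SNAP, NAP, GOSR, BET1, SEC22, YKT6 and VTI1 genes. Letters after the number were allowed for RAB only, so the syntaxin STX1A, although named, is not a member. The platform annotation used here gave 37 such genes among 14884 annotated symbols, measured within 53617 probe sets. Of the 37 genes, 29 were grouped by symbol as SNARE proteins, 5 encode syntaxin-binding regulators and 3 carry a symbol of the RAB pattern. These 3 do not make up a RAB family: RAB6D is the one RAB GTPase-type gene among them, RAB3IP encodes an exchange factor for RAB8, and RAB5IF encodes a membrane protein with no GTPase domain. Probe sets of most RAB GTPases, of the SNAP and NAP genes and of SEC22A are unnamed in that annotation and were not analysed here, apart from RAB8A and RAB11B, which the study's own tables name. The set is therefore described as SNARE proteins and regulators.

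There were 4 groups of 3 arrays each. HuH-7 cells received a miR1908-5p mimic, a mimic transfection control coupled to the dye Dy547, a hairpin inhibitor of miR1908-5p, or an inhibitor transfection control coupled to the same dye. The final concentration given by the labels was 9 nM, and RNA was taken after 72 h from cells in low glucose medium with serum, transfected with a lipid reagent in every group. The 3 repeats were separate occasions, one array of each group per occasion, and a single cell line stands for the hepatocyte.

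SNARE proteins drive the fusion of membranes. An R-SNARE on a vesicle, usually a VAMP, zips together with Q-SNAREs on the target membrane, of which the Qa subunit is a syntaxin. Proteins of the Sec1/Munc18 kind hold syntaxins ready, RAB GTPases and tethers bring the membranes close, and the ATPase NSF takes used complexes apart. In hepatocytes this machinery serves the secretion of plasma proteins and lipoproteins, the recycling of receptors and delivery to the bile canalicular surface.

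The mature miRNA that the mimic copies and the inhibitor opposes is shown because its seed is what pairs with targets. Capitals mark the seed, bases 2 to 8.
hsa-miR-1908-5p: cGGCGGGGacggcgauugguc
The RefSeq sequence has 21 bases, of which 16 are G or C. It lies on the minus strand at chr11:61815209-61815229 (GRCh38.p14), in MIR1908, within an intron of FADS1. The complement of the seed reads CCCCGCC. Transcripts of the members were not searched for it.

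The deposited values are log2 signals, so a difference of 1 is a doubling in signal and 0 is no difference. Array medians lay between 4.99 and 5.15. The SD over probe sets was 1.95 in mimic 3 and 1.98 in mimic control 3, and between 2.02 and 2.06 in the other 10 arrays. Of 14 hepatocyte markers, 12 were named, with means of 7.61 to 12.98. Of 18 markers of blood, endothelial, stellate or neural cells, 7 were named, with means of 4.32 to 6.38. Each gene is represented by its brightest probe set, levels of different probe sets are not set against each other, and a lower signal cannot be told apart from a change in the make-up of the culture.

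**Figure D1:**
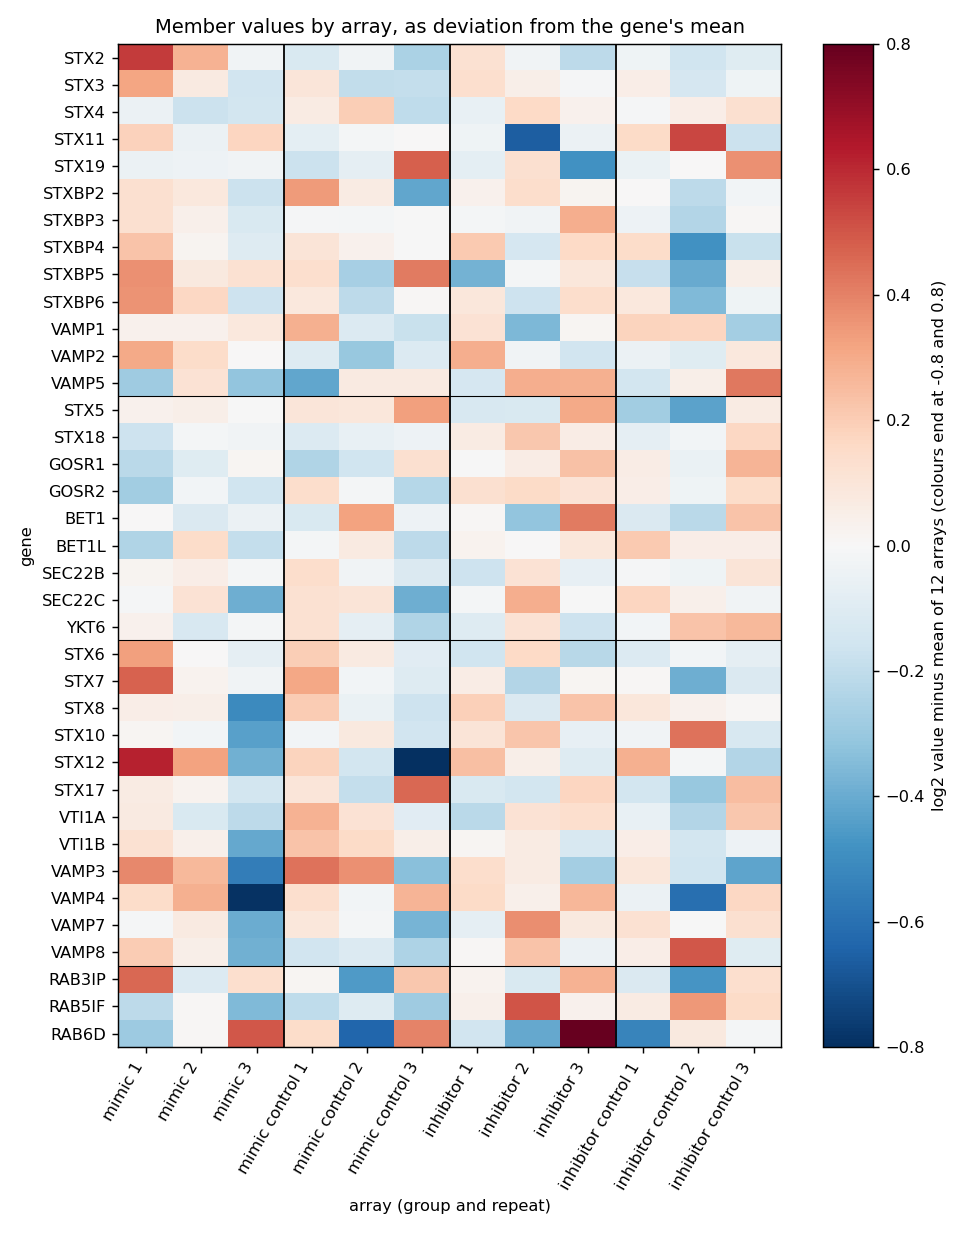
Log2 value of each of the 37 genes (rows) on each of the 12 arrays (columns), less the gene's mean over the arrays, in colour. Rows are ordered by the membrane at which the gene acts. Several dark cells lie in repeat 3, such as the low VAMP4 value of mimic 3 (5.89), the low STX12 value of mimic control 3 (6.70) and the high RAB6D value of inhibitor 3 (2.83). Others are the low STX11 value of inhibitor 2 (4.48) and the high STX2 value of mimic 1 (8.40).

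Genes of the SNARE set lay near their control level after the mimic. Of the members, 19 were higher and 18 lower than with the mimic control, and their median log2 difference was 0.002, beside -0.03 over all annotated symbols and -0.003 over all probe sets. The differences ran between -0.25 for VAMP4 and 0.44 for STX12, with a median standard error of 0.18. The share of members above their control was 51.4%, beside 44.8% of annotated symbols and 49.5% of all probe sets. No member passed an adjusted p under 0.05 in limma, beside 0.0149% of all probe sets. At an unadjusted p under 0.05 there was 1 member of 37 (2.70%), STX2, beside 4.81% of annotated symbols and 4.61% of all probe sets. When the occasion was included as a block there were 3, STX2, STX12 and VAMP2, beside 7.75% of all probe sets. Each was higher with the mimic, a direction in which 3.49% of all probe sets passed. None remained after adjustment (0.0448% of all probe sets). In the model without the block, the 95% intervals of 36 members lay within 1 log2 unit of 0 on both sides, the exception being STX12. The SE of STX12 was 0.29 in that model and 0.16 with the block.

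**Figure D2:**
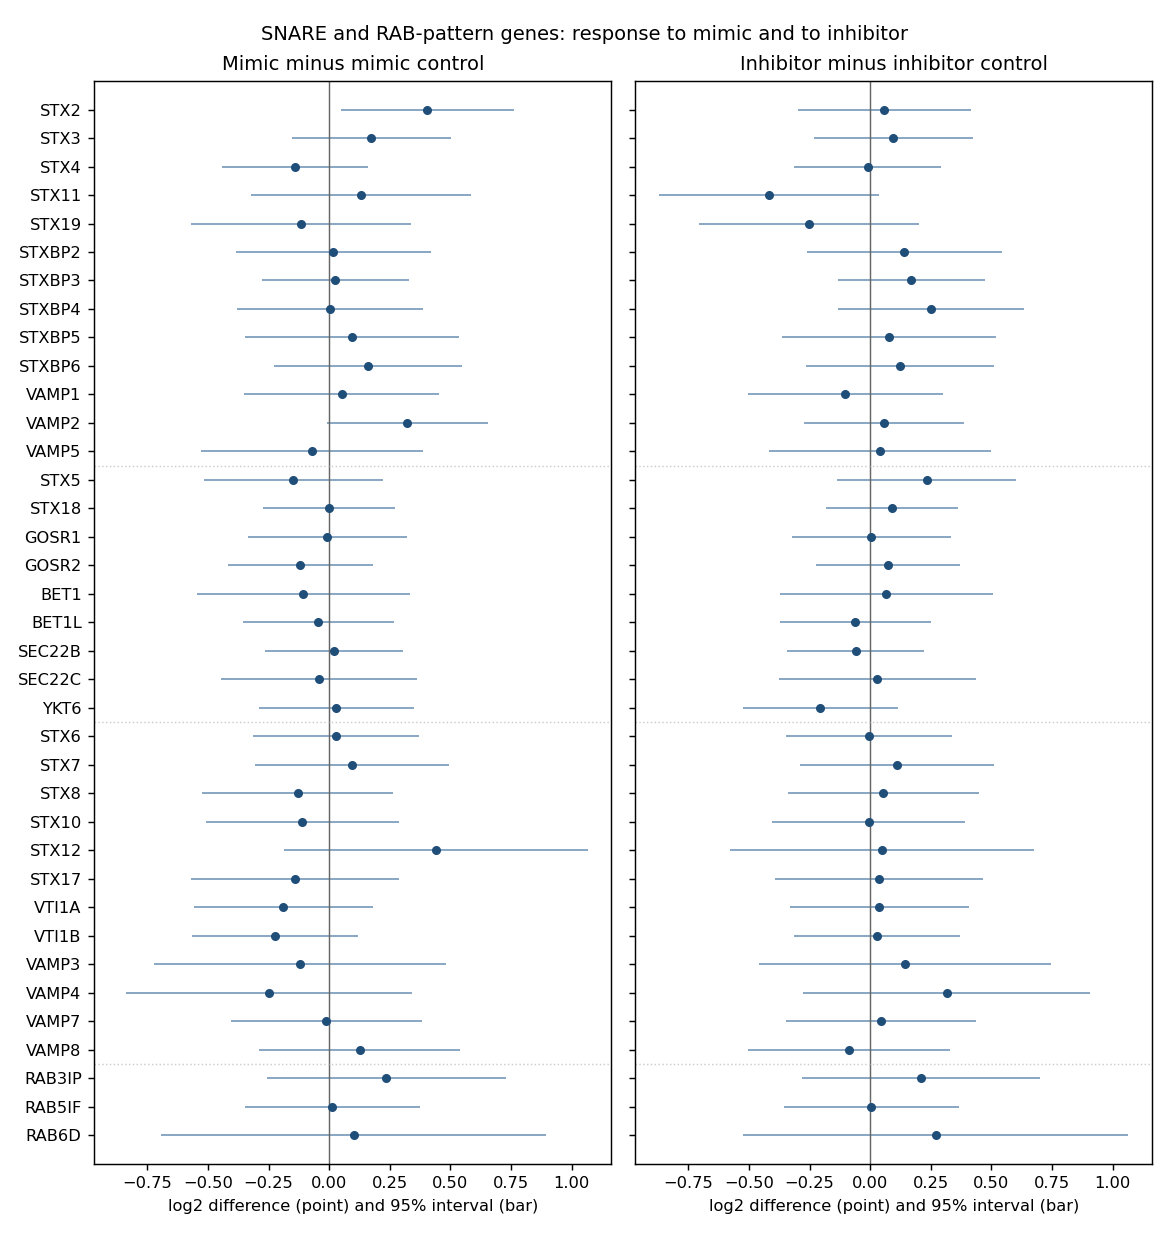
Log2 difference (point) with its 95% interval (bar) for each of the 37 genes, mimic minus mimic control on the left and inhibitor minus inhibitor control on the right. Dotted lines separate genes of the plasma membrane, of the endoplasmic reticulum and Golgi, of endosomes and lysosomes, and of the RAB pattern. Points lie between -0.25 and 0.44 on the left and between -0.42 and 0.31 on the right. Intervals come from the model without the occasion as a block.

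Syntaxins of the plasma membrane were examined first. STX2, a syntaxin of epithelial cells that also takes part in the last step of cell division, had log2 values of 8.40, 8.12 and 7.82 on the mimic arrays, against 7.72, 7.81 and 7.59 on the mimic control arrays. The lowest mimic array was above the highest control array, the nearest values being 7.82 and 7.81. The difference was 0.41 (SE 0.16, unadjusted p = 0.029, adjusted p = 0.9999 in limma), and the differences within repeats 1, 2 and 3 were 0.68, 0.31 and 0.23. Without mimic 1 it was 0.26, with an unadjusted p of 0.137, and the unadjusted p was also above 0.05 without mimic 2 (0.060), mimic control 1 (0.055) or mimic control 3 (0.088). STX2 averaged 7.80 ± 0.16 on the inhibitor arrays, against 7.75 ± 0.06 on the inhibitor control arrays (SD, n = 3 each), and the inhibitor arms overlapped.

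STX3, the syntaxin of the apical surface, was higher with the mimic in each repeat, by 0.22, 0.27 and 0.04. Its basolateral counterpart STX4 had a mean difference of -0.14 (SE 0.14). STX11, known from killing by immune cells, differed by 0.13 and STX19 by -0.12. None of these 4 passed an unadjusted p under 0.05. STX1A, a syntaxin outside the symbol rule, differed by -0.15 (SE 0.14) with the mimic and by 0.02 (SE 0.14) with the inhibitor.

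The regulators that bind syntaxins at the plasma membrane were each close to their control. STXBP2 and STXBP3 are Sec1/Munc18 proteins, STXBP5 (tomosyn) and STXBP6 (amisyn) occupy syntaxins without driving fusion, and STXBP4 binds STX4 in the handling of glucose transporters. Differences of these 5 genes with the mimic lay between 0.002 for STXBP4 and 0.16 for STXBP6. STXBP6 averaged 6.75 ± 0.27 on the mimic arrays, against 6.59 ± 0.15 on the mimic control arrays (SD, n = 3 each), and its difference was -0.17 in repeat 3 against 0.28 and 0.38 in repeats 1 and 2. The difference of STXBP6 was 0.04 without mimic 1, 0.08 without mimic control 2 and 0.30 without mimic 3. The sign of the regulators as a group therefore rests on values smaller than their standard errors of 0.14 to 0.20.

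Among R-SNAREs of secretory vesicles, VAMP2, the synaptobrevin of regulated exocytosis, had values of 5.99, 5.83 and 5.69 on the mimic arrays, against 5.58, 5.38 and 5.58 on the mimic control arrays. The groups did not overlap. The difference was 0.32 (SE 0.15, unadjusted p = 0.056), with 0.41, 0.45 and 0.11 in repeats 1, 2 and 3, and with the block the unadjusted p was 0.040 (adjusted p = 0.622). Without mimic 3 the difference was 0.40 with an unadjusted p of 0.035, in the model without the block. The mimic control was also the lowest of the 4 groups for VAMP2, at 5.51 ± 0.12, beside 5.83 ± 0.15 for the mimic, 5.72 ± 0.23 for the inhibitor and 5.67 ± 0.09 for the inhibitor control (SD, n = 3 each). VAMP1 differed by 0.05 and VAMP5 by -0.07 with the mimic.

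The genes grouped under traffic between endoplasmic reticulum and Golgi lay close to their control. STX5 and STX18 are the syntaxins of this route, GOSR1, GOSR2, BET1 and BET1L are their Golgi partners, and SEC22B, SEC22C and YKT6 belong to the longin group. The 9 differences lay between -0.15 for STX5 and 0.03 for YKT6, and none passed an unadjusted p under 0.05. STX5 had values of 8.21, 8.23 and 8.17 on the mimic arrays, against 8.28, 8.27 and 8.51 on the mimic control arrays. Every mimic array was below every control array, the nearest values being 8.23 and 8.27, and the difference was -0.15 with an SE of 0.17. Without mimic control 3 it was -0.07. The second annotated probe set of BET1L gave -0.09, beside -0.04 for the brighter one.

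Endosomal and lysosomal SNAREs contained the widest differences in both directions. STX12, also called syntaxin 13, a syntaxin of recycling endosomes, had values of 8.12, 7.83 and 7.12 on the mimic arrays, against 7.69, 7.36 and 6.70 on the mimic control arrays. The groups overlapped, since both groups were lowest in repeat 3, but within each repeat the mimic array was higher, by 0.43, 0.47 and 0.42. The difference of 0.44 had an SE of 0.29 and an unadjusted p of 0.151 across groups, and an SE of 0.16 with an unadjusted p of 0.019 (adjusted p = 0.516) with the occasion as a block. In models without the block the difference was 0.17 without mimic control 3, 0.23 without mimic 1, and 0.72 with an unadjusted p of 0.021 without mimic 3.

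VAMP4, an R-SNARE of the trans-Golgi network, had values of 6.82, 6.96 and 5.89 on the mimic arrays, against 6.81, 6.65 and 6.95 on the mimic control arrays. Its difference of -0.25 (SE 0.27) holds 1 low array, mimic 3, and the differences in repeats 1 and 2 were 0.01 and 0.31. VTI1A and VTI1B, the Qb-SNAREs of the trans-Golgi network and late endosomes, were lower with the mimic in each repeat, with mean differences of -0.19 (SE 0.17) and -0.22 (SE 0.16). VAMP3, which serves recycling endosomes, differed by -0.12, VAMP7 by -0.01 and VAMP8 by 0.13. The late endosomal STX7 and STX8 differed by 0.09 and -0.13, STX6 and STX10 of the trans-Golgi network by 0.03 and -0.11, and the autophagosomal STX17 by -0.14. In the model without the block no gene of the endosomal and lysosomal group passed an unadjusted p under 0.05.

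Single arrays were compared as well. The mimic and mimic control arrays did not overlap for 3 of 37 members (8.11%), STX2, VAMP2 and STX5, beside 9.96% of annotated symbols and 8.86% of all probe sets. The direction was the same in every repeat for 9 members (24.3%), 5 higher and 4 lower, beside 35.1% of annotated symbols and 30.0% of all probe sets.

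**Figure D3:**
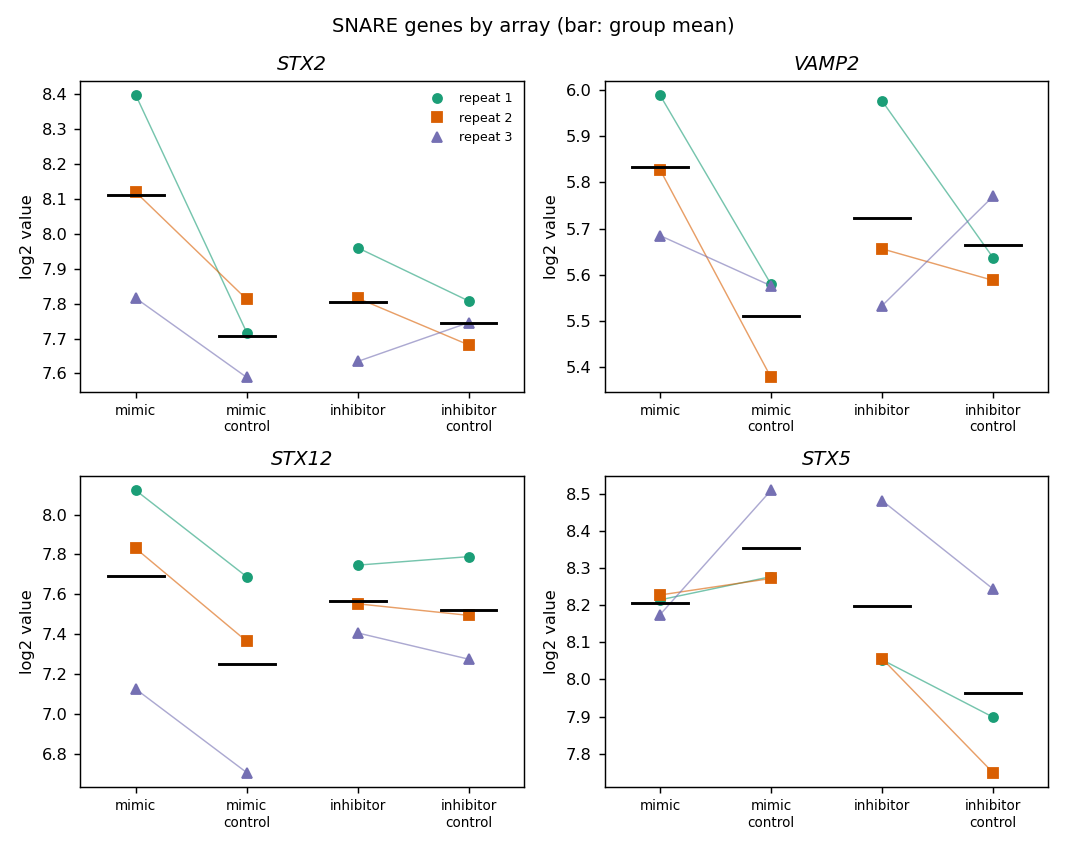
Log2 values of STX2, VAMP2, STX12 and STX5 on each array, by group, with symbols for the 3 repeats, thin lines joining the arrays of one repeat and a bar at the group mean. STX2 and VAMP2 mimic arrays lie above their control arrays, STX12 arrays are ordered by repeat within both groups, and STX5 is highest in the mimic control (8.35 ± 0.14, SD, n = 3).

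RAB genes were followed where a name was at hand. RAB6D, a close relative of the Golgi GTPase RAB6A, had values between 1.29 and 2.83 on the 12 arrays, which is below the median of each array, and its difference with the mimic was 0.10 (SE 0.36). RAB3IP, also called Rabin8, had values of 6.49, 5.92 and 6.16 on the mimic arrays, against 6.04, 5.57 and 6.25 on the mimic control arrays, a difference of 0.24 (SE 0.22) with overlapping groups. The difference of RAB3IP was 0.04 without mimic control 2, 0.08 without mimic 1, 0.37 without mimic 2 and 0.38 without mimic control 3. RAB5IF, described as an assembly factor of respiratory chain complexes, differed by 0.01 (SE 0.16).

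RAB8A and RAB11B, GTPases of transport to the cell surface and of recycling endosomes, are named by the study's tables and are not counted among the 37 members. RAB8A had values of 9.35, 9.56 and 9.04 on the mimic arrays, against 10.26, 10.08 and 9.77 on the mimic control arrays. The groups did not overlap, and the difference was -0.72 (SE 0.17, unadjusted p = 0.00144, adjusted p = 0.601 in limma). RAB11B had 8.93, 9.01 and 8.68 on the mimic arrays, against 9.64, 9.41 and 9.34 on the mimic control arrays, again without overlap, a difference of -0.59 (SE 0.16, unadjusted p = 0.00267, adjusted p = 0.730). With the occasion as a block the adjusted p was 0.181 for RAB8A and 0.339 for RAB11B. The table that names RAB8A was chosen partly on these same arrays, and RAB11B stands in it too, so neither direction is independent evidence. With the inhibitor the differences were 0.02 (SE 0.17) for RAB8A and 0.09 (SE 0.16) for RAB11B. For both genes the mimic was the lowest group and the mimic control the highest. RAB8A averaged 9.32 and 10.04 in these groups, beside 9.81 for the inhibitor and 9.79 for the inhibitor control. RAB11B averaged 8.87 and 9.46, beside 9.35 for the inhibitor and 9.26 for the inhibitor control.

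NSF, which the symbol rule leaves out, passed the adjusted threshold. Its values were 9.57, 9.70 and 9.69 on the mimic arrays, against 8.44, 8.52 and 8.37 on the mimic control arrays, a difference of 1.21 (SE 0.12, adjusted p = 0.015). With any 1 of these 6 arrays left out the difference was 1.17 to 1.25 and the adjusted p 0.057 to 0.106, and in a model of only these arrays the adjusted p was 0.689. The mimic control was the group that stood apart, as NSF had 9.29, 9.39 and 9.45 on the inhibitor arrays, against 9.38, 9.28 and 9.17 on the inhibitor control arrays. NSF has a near-identical partial copy in the genome, so the probe set may not be particular to it.

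**Figure D4:**
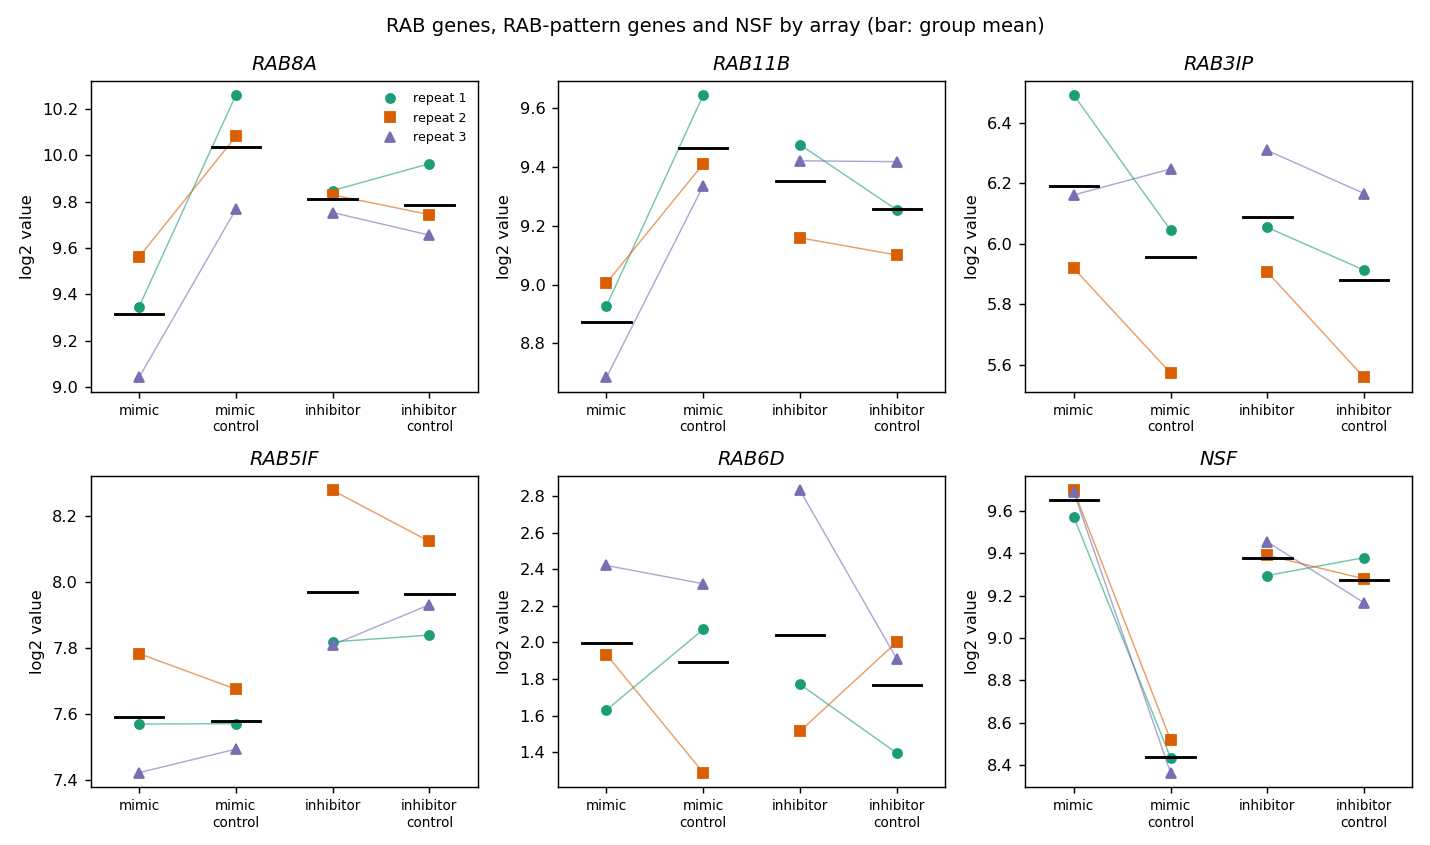
Log2 values of RAB8A, RAB11B, RAB3IP, RAB5IF, RAB6D and NSF on each array, by group, with symbols for the 3 repeats, thin lines joining the arrays of one repeat and a bar at the group mean. RAB8A and RAB11B mimic arrays lie below the mimic control arrays, and the NSF mimic control arrays (8.37 to 8.52) lie below the other 9 arrays.

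Differences with the inhibitor were small and mostly above 0. With the inhibitor 27 members were higher and 10 lower than with the inhibitor control (73.0% higher), beside 56.5% higher among annotated symbols and 50.3% among all probe sets. The median difference was 0.05, beside 0.02 over annotated symbols. With 1 array left out the median over members was lowest without inhibitor control 2 (0.019) and highest without inhibitor control 3 (0.093). With a repeat left out it was lowest without repeat 2 (0.015) and highest without repeat 3 (0.093). No member passed the adjusted threshold or an unadjusted p under 0.05 in limma, with or without the block, beside 2.92% of all probe sets without it and 4.51% with it at the unadjusted threshold and 0.00187% at the adjusted one without it. In the model without the block, the 95% intervals of 36 members lay within 1 log2 unit of 0, the exception being RAB6D. The SE of RAB6D was 0.36 in that model and 0.27 with the block.

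The 5 regulators were again each above their control, by 0.08 for STXBP5 to 0.25 for STXBP4. STXBP2, the Munc18 protein of epithelial secretion, had values of 6.17, 6.27 and 6.15 on the inhibitor arrays, against 6.14, 5.92 and 6.11 on the inhibitor control arrays. It was the 1 member whose inhibitor arms did not overlap (2.70%), beside 8.00% of all probe sets, and the difference was 0.14 (SE 0.18), or 0.07 without inhibitor control 2. STXBP4 averaged 8.00 ± 0.19 on the inhibitor arrays, against 7.75 ± 0.31 on the inhibitor control arrays (SD, n = 3 each), the low control array being inhibitor control 2 at 7.44. The difference of STXBP4 was 0.10 without inhibitor control 2, and 0.41 with an unadjusted p of 0.040 without inhibitor control 1.

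STX11 had the lowest p of the inhibitor comparison, at 0.069 unadjusted, with a difference of -0.42 (SE 0.21). Its signal was low, between 4.48 and 5.68 on the 12 arrays, around the array medians of 4.99 to 5.15. Its values were 5.11, 4.48 and 5.10 on the inhibitor arrays, against 5.30, 5.68 and 4.97 on the inhibitor control arrays, and the difference lay mostly in repeat 2. It was -0.21 without inhibitor 2 and -0.24 without inhibitor control 2, and its unadjusted p was below 0.05 without any one of inhibitor 1, inhibitor 3 and inhibitor control 3. VAMP4 was higher in each repeat, by 0.20, 0.64 and 0.10, with a mean difference of 0.31 that was 0.09 without inhibitor control 2 and 0.48 without inhibitor control 3. STX5 was higher by 0.15, 0.31 and 0.24. YKT6, the longin SNARE of several fusion steps, was lower in each repeat, by -0.08, -0.11 and -0.43. In all, 10 members were higher and 1 lower in every repeat, 29.7% together, beside 28.1% of annotated symbols and 27.4% of all probe sets. By direction, 27.0% of members were higher and 2.70% lower, beside 16.6% and 11.5% of annotated symbols.

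The mimic and inhibitor responses were set against each other in the same model. No member's responses differed at an adjusted or an unadjusted p under 0.05 in limma, beside 4.24% of all probe sets at the unadjusted threshold and 7.02% with the block, where again no member passed. The difference was above 0 for 16 members and below 0 for 21, beside 43.7% of annotated symbols and 50.3% of all probe sets above 0 (43.2% of members). The widest member differences were -0.56 for VAMP4 and 0.55 for STX11 (unadjusted p = 0.088), with the low arrays mimic 3 for VAMP4 and inhibitor 2 for STX11 named above. The VAMP4 value was -0.23 without mimic 3 and -0.34 without inhibitor control 2. The STX11 value was 0.34 without inhibitor 2, and 0.72 with an unadjusted p of 0.029 without inhibitor control 3. The median over members was -0.06, beside -0.04 over annotated symbols.

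Differences between the transfection controls ran between -0.39 for RAB5IF and 0.39 for STX5. Between mimic control and inhibitor control, 16 members lay higher and 21 lower, and their median difference was -0.03. Of members 43.2% were higher, beside 51.7% of annotated symbols and 50.2% of all probe sets. No member passed the adjusted threshold (0.00373% of all probe sets, and 0.0205% with the block), and 2 (5.41%), STX5 and RAB5IF, passed an unadjusted p under 0.05, beside 5.28% of all probe sets. STX5 had 8.28, 8.27 and 8.51 on mimic control arrays, against 7.90, 7.75 and 8.24 on inhibitor control arrays, a difference of 0.39 (SE 0.17, unadjusted p = 0.040). RAB5IF had 7.57, 7.67 and 7.49 on mimic control arrays, against 7.84, 8.12 and 7.93 on inhibitor control arrays, a difference of -0.39 (SE 0.16, unadjusted p = 0.038). For RAB5IF the mimic arrays, at 7.59 ± 0.18, were close to their control, and the inhibitor arrays, at 7.97 ± 0.27 (SD, n = 3 each), to theirs.

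Arrays of the controls did not overlap for 4 members (10.8%), STX5 higher and RAB5IF, VAMP2 and VAMP8 lower in the mimic control, beside 10.5% of all probe sets. The direction was the same in every repeat for 15 members (40.5%), beside 34.3% of annotated symbols and 30.3% of all probe sets. VAMP8, an R-SNARE of late endosomes and of secretory granules, averaged 7.83 ± 0.07 on mimic control arrays, against 8.15 ± 0.31 on inhibitor control arrays (SD, n = 3 each), a difference of -0.32 (SE 0.19), or -0.15 without inhibitor control 2. With the occasion as a block VAMP3 joined STX5 and RAB5IF past the unadjusted threshold, with 3 members in all, beside 8.71% of all probe sets. In limma without the block, STX5 passed the unadjusted threshold without inhibitor control 3, and not without any one of mimic control 1, 2 or 3 or inhibitor control 1 or 2, its difference lying between 0.28 and 0.53. RAB5IF passed it without mimic control 2 or inhibitor control 1, and not without mimic control 1 or 3 or inhibitor control 2 or 3, its difference lying between -0.45 and -0.31.

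Members also varied between the occasions. In a moderated F test for the 3 repeats, with group as a covariate, 10 of 37 members (27.0%) had an unadjusted p under 0.05, beside 25.5% of annotated symbols and 22.7% of all probe sets. After adjustment 2 members (5.41%) differed between occasions, VAMP3 and STX12, beside 7.21% of annotated symbols and 4.97% of all probe sets. The share of members that varied with the occasion, RAB-pattern genes included, was thus close to that of all annotated symbols.

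Over repeats 1, 2 and 3, VAMP3 averaged 9.39, 9.26 and 8.73 across its 4 arrays (adjusted p = 0.030). Repeat 3 gave 8.58 with the mimic, 8.79 with the mimic control, 8.85 with the inhibitor and 8.70 with the inhibitor control, each below the 8 arrays of the other occasions. STX12 averaged 7.84, 7.56 and 7.13 (adjusted p = 0.038), and its repeat 3 arrays gave 7.12, 6.70, 7.41 and 7.27 in the same order of groups, the inhibitor value lying above the 7.36 of mimic control 2. Repeat 3 minus repeat 1 was -0.66 for VAMP3 and -0.71 for STX12, beside mimic differences of -0.12 and 0.44. All 4 arrays of repeat 3 were below the other 8 for 2 members (5.41%), VAMP3 and STX10, beside 6.89% of annotated symbols and 3.65% of all probe sets. Leaving out any 1 array kept both unadjusted p values under 0.01, but the number of members past the adjusted threshold was 2 without inhibitor 3, 1 without mimic 2 or without inhibitor control 2, and 0 without any one of the other 9 arrays.

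Other members with an unadjusted p under 0.05 for occasion were RAB3IP, STX7, STX10, RAB6D, RAB5IF, VAMP5, GOSR1 and SEC22C. They did not move alike. RAB3IP was lowest in repeat 2 (by 0.48 below repeat 3), RAB6D highest in repeat 3, and STX10 and SEC22C lowest in repeat 3. STX7 was highest in repeat 1, with a mimic 1 value of 10.54.

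**Figure D5:**
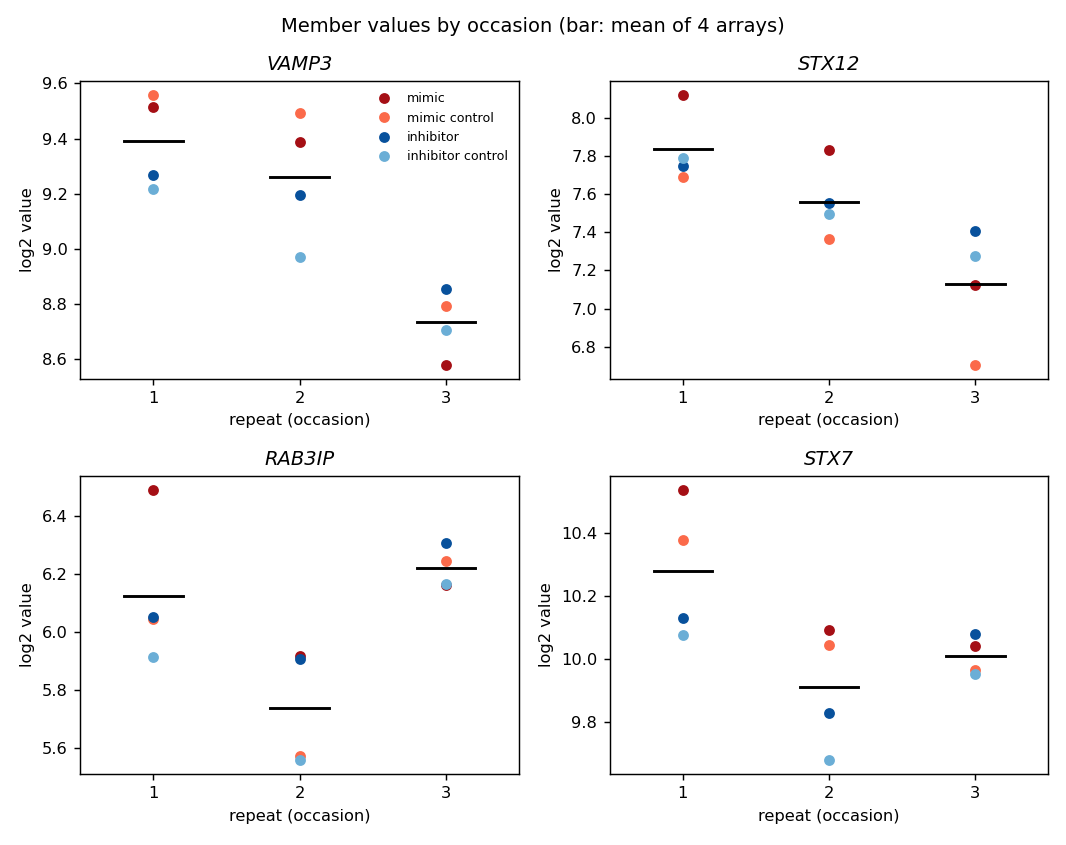
Log2 values of VAMP3, STX12, RAB3IP and STX7 at each occasion, 1 point per array coloured by group, with a bar at the mean of the 4 arrays. VAMP3 arrays of repeat 3 lie below all others, and the repeat 3 mean is the lowest for VAMP3 (8.73) and STX12 (7.13).

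Other genes of membrane traffic were counted from lists, with no test of a list. Of 64 genes that load, unload or read RAB GTPases, 43 were named. With the mimic 18 were higher and 25 lower, beside 44.8% of annotated symbols higher, and 4 of the 43 had an unadjusted p under 0.05, each lower: DENND1A, CHML, MON1A and RILP. Of annotated symbols 4.81% passed that threshold in either direction and 2.73% as lower, and of all probe sets 4.61% passed it. DENND1A, an exchange factor for RAB35, had 7.55, 7.68 and 7.55 on the mimic arrays, against 7.86, 7.99 and 8.04 on the mimic control arrays, a difference of -0.37 (SE 0.12, unadjusted p = 0.00947). CHML, an escort protein that presents RABs for prenylation, differed by -0.37 (SE 0.14) and did not pass the unadjusted threshold without mimic 3 or without mimic control 3. MON1A, part of the exchange factor for RAB7, differed by -0.41 (SE 0.15), and RILP, a RAB7 effector on late endosomes, by -0.38 (SE 0.16). The MON1A values were below the median of each array. None passed adjustment.

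Of 58 tethering genes 54 were named, 19 higher and 35 lower with the mimic, beside 44.8% of annotated symbols higher. Unadjusted p values under 0.05 were found for 3 of the 54, beside 4.81% of annotated symbols and 4.61% of all probe sets. They were TRAPPC10, a subunit of a TRAPP tethering complex, at 0.29 (SE 0.11), and SCFD2 and VPS33A, both of the Sec1/Munc18 kind, at -0.47 (SE 0.15) and -0.31 (SE 0.14). SCFD2 had 8.63, 8.92 and 8.98 on the mimic arrays, against 9.48, 9.42 and 9.06 on the mimic control arrays, with no overlap. TRAPPC10 did not pass the unadjusted threshold without mimic 1 or without mimic control 2. Its mimic control arrays (7.72, 7.69 and 7.74) lay below the arrays of every other group. The mimic arrays had 8.06, 8.00 and 7.96, the inhibitor arrays 7.97, 7.93 and 7.98, and the inhibitor control arrays 7.88, 7.91 and 7.99. Of 50 genes of coats and ARF GTPases 20 were named, 10 higher and 10 lower, with none past the unadjusted threshold, and ARF1, the GTPase that recruits the COPI coat, differed by -0.20 (SE 0.12). No gene of the 3 lists passed an adjusted p under 0.05 in limma with the mimic, and none passed even an unadjusted p under 0.05 with the inhibitor.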

How the data were processed

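Values were measured on Affymetrix HuGene-2_0-st arrays, 12 in all. Normalization was done by the authors, whose deposited log2 values, 1 for each probe set, come from Affymetrix Expression Console and were not rescaled. The console's version and settings: not given in the sources used here. The array has 53617 probe sets, of which the platform annotation names 16098, with 1 symbol each and 14884 symbols in all. The brightest probe set by mean stands for a gene. Members, lists and the rule for naming genes were chosen with earlier results of these data known. That rule takes the lowest unadjusted p under 0.05 per comparison (up to 12, or 6 for occasion), the widest mimic difference per group of members, the genes the study's tables name, RAB-pattern symbols that are no GTPase, and the lowest 2 p values per pathway list. The values shown for other members were chosen after they were seen.

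Testing used limma 3.58.1 (R 4.3.3 with statmod 1.5.0). All 12 arrays entered 1 fit with a mean for each of 4 groups, two-sided, with Benjamini-Hochberg adjustment over 53617 probe sets, and occasion with a moderated F test. Scripts were tested on simulated data. Replicates are arrays of separate occasions, 3 per group, and their number limits the precision. The series' design text makes each repeat number an occasion, which pairs the arrays. Deviations from group means correlated at a median of 0.24 within repeats (18 pairs) and -0.14 across repeats (36 pairs). Over the members alone these medians were 0.42 and -0.25. No arrays had equal values. Alternatives were the block, models of only the arrays compared, quantile normalization, a common median, dim probe sets left out, a trend with a robust prior, array weights, the methods' t-test, the mean of a gene's probe sets, names from the study's tables, and each array left out. Leaving out each repeat was chosen after seeing the data. Protein sequences were not used here.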

Additional observations from a re-analysis of the deposited data

Results flagged for a closer look

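Among the 37 members, RAB8A, RAB11B, NSF and STX1A, the rule was opposite signs of the mimic and inhibitor responses in every repeat, or a difference at an unadjusted p under 0.05. It flagged 5 genes, and none passed an adjusted p under 0.05 in limma. Genes of the 3 pathway lists were not included. In limma, 1 of 43 RAB cycle genes and 3 of 54 tethering genes also passed the unadjusted threshold for this difference, each below 0. Of annotated symbols 3.56% passed it in either direction and 2.08% below 0, and of all probe sets 4.24% passed it. None of these RAB cycle or tethering genes passed adjustment. STX5 was lower with the mimic in all 3 repeats and higher with the inhibitor in all 3, a difference of -0.38 between the responses (unadjusted p = 0.137). VAMP3 had the same signs, with a difference of -0.26 (unadjusted p = 0.511). For both genes the means of the mimic and inhibitor arrays lay closer together than the means of their controls. Mimic control minus inhibitor control was 0.39 for STX5 and 0.32 for VAMP3. The differences between responses of STX5 and VAMP3 therefore lay mainly in the controls, and the reason was not tested. The share of all probe sets with opposite signs in every repeat was not counted, so these signs have no background to be set beside. RAB11B was lower with the mimic and higher with the inhibitor in every repeat, a difference of -0.69 (unadjusted p = 0.00921, adjusted p = 0.998). RAB8A differed between the responses by -0.74 (unadjusted p = 0.0109, adjusted p = 0.998). NSF differed by 1.11 (unadjusted p = 4.10e-05, adjusted p = 0.463).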

How the results depend on the processing

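VAMP4 with the mimic, at -0.25, was 0.063 with array weights, and with arrays left out ranged between -0.449 (without mimic 2) and 0.087 (without mimic 3), and was 0.160 without repeat 3. The difference between responses of VAMP3, at -0.26, ranged between -0.509 (without mimic control 3) and 0.028 (without mimic 3). No other named gene's difference changed sign under the alternatives run for it. No member passed the adjusted threshold in a comparison of groups under any of them. Counts at an unadjusted p under 0.05 were small and moved. With the mimic the 1 member higher became 3 with the replicate block, 3 with array weights, 2 with dim probe sets left out, 2 with a trend and robust prior, 0 in a model of only the arrays compared and 0 with a common median. Members lower with the mimic were 0, and 2 when RAB8A and RAB11B were added by the study's names, which also gave 2 lower in the difference between responses. Between the controls the 1 higher became 2 with the replicate block, 0 with only the arrays compared and 0 with the methods' t-test, and the 1 lower became 0 with array weights. In the difference between responses, quantile normalization gave 1 member higher in place of 0, and the median of -0.06 became 0.011 with quantile normalization and 0.025 with array weights. The cause was not tested.

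Leaving out single arrays or repeats gave 0 to 3 members higher with the mimic (3 without mimic 3, 0 without any one of mimic 1, mimic 2, mimic control 1 and mimic control 3), 0 to 1 in each direction for the inhibitor, 0 to 2 higher and 0 to 1 lower between the controls, and 0 to 1 in each direction for the difference between responses. The median for the mimic comparison ranged between -0.031 and 0.079 with 1 array left out and up to 0.046 with a repeat left out. It ranged between 0.015 and 0.093 for the inhibitor, between -0.093 and 0.021 for the controls, and between -0.113 and 0.039 for the difference between responses. For occasion, 5 to 9 members passed the unadjusted threshold and 0 to 2 the adjusted one with 1 array left out. STX2 had an unadjusted p of 0.070 with only the arrays compared, 0.088 by the methods' t-test and 0.055 with a common median. With 3 arrays a group and a median standard error of 0.18, small differences of single SNARE genes were not detectable.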
